A study of Mus musculus with 70 samples.

Results

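The levels of 8 genes that bind, make, break down or sense retinoids, the derivatives of vitamin A, were followed through the formation of the mouse dorsal cerebral cortex. They were taken by gene symbol from a table of 23078 genes. The set holds the retinoic acid binding proteins Crabp1 and Crabp2, the retinaldehyde binding protein Rlbp1, the retinaldehyde reductase Dhrs3, the synthesis enzyme Aldh1a2, the breakdown enzyme Cyp26b1 and the receptors Rarb and Rxrg. The members were chosen by their known roles and selected on their levels over the cell types and stages of these same libraries. Their values are therefore given as a description without tests. Each of the 8 reached a group mean of 1 TPM or more somewhere, the filter used below.

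Vitamin A reaches cells as retinol, which dehydrogenases oxidise to retinaldehyde and then to retinoic acid, the ligand of the nuclear receptors RAR and RXR. Binding proteins hold each form inside the cell, CYP26 enzymes break retinoic acid down, and RAR and RXR pair on DNA to change transcription of target genes. In the embryonic forebrain the meninges are a known source of retinoic acid, and the signal is known for its part in patterning and in the maturation of cortical neurons.

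Bulk RNA sequencing had been done on GFP-positive cells sorted from micro-dissected dorsal cortices of wild-type C57Bl/6 mice. Neural stem cells (NSC) came from Hes5::GFP animals, in which the Notch target gene Hes5 marks the sorted cells, at 10 stages, from E10.5 in days of gestation to the first day after birth (PN). Basal progenitors (BP, 8 stages from E12.5) and newborn neurons (NBN, 5 stages from E15.5) came from Tbr2::GFP animals, in which the marker is Tbr2, the product of Eomes. The 70 libraries made up 33 of NSC, 23 of BP and 14 of NBN, in 23 groups of 2 to 4. NSC differ from both other cell types in reporter line as well as in kind, and these cannot be told apart. The gate that divided Tbr2::GFP cells into BP and NBN is not given in the sources.

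Values are TPM (transcripts in every 1000000), an abundance corrected for transcript length and scaled to the same total in each library. Sequencing depth is unknown, so no counting intervals were computed, and a gene at exactly 0 is said only to be listed at 0. Libraries listed between 16098 and 21210 genes above 0, and no pair held identical values. The labels do not say whether replicates came from separate animals. All libraries are labelled female, yet 43 of 70 held more than 10 TPM of Y-linked transcripts, and NSC PN replicate 3 is named a basal progenitor in 1 label field and NSC in its title and reporter line. It was kept as NSC. At E16.5 all 4 Y-linked transcripts were at or above 1 TPM in NSC and none of them in BP or NBN. Their part in differences between cell types at E16.5 was not tested. Summed TPM of 8 radial glia markers ranged from 1578 to 11922 in NSC, 523.6 to 963.7 in BP and 218.9 to 479.3 in NBN libraries. Summed TPM of 8 neuronal markers ranged from 412 to 6196, 3801 to 7195 and 5936 to 9564, in the same order, so NSC and BP libraries also held neuronal transcripts. In bulk samples fewer cells of a type and less RNA per cell cannot be told apart.

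In the GRCm38 annotation Crabp1 lies at chr9:54764748-54773110 and Aldh1a2 at chr9:71215789-71296243, both on the plus strand. Crabp2 lies at chr3:87948666-87953376 (plus), Dhrs3 at chr4:144892827-144928209 (plus) and Rxrg at chr1:167598384-167639623 (plus). Rlbp1 lies at chr7:79374870-79387048 (minus), Cyp26b1 at chr6:84571414-84593908 (minus) and Rarb at chr14:16430839-16819156 (minus). All 8 are protein-coding. The library kit does not mark strand, and Rarb shares 1793 exonic bases with Top2b on the opposite strand, so reads there cannot be told apart. Top2b, a DNA topoisomerase, had group means from 35.3 to 367 TPM. Across the 23 group means the Pearson correlation of Rarb and Top2b, on log2(TPM + 1), was -0.31.

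Rarb is the textbook example of a gene that its own ligand induces, through a direct repeat in its promoter. The repeat is shown because Rarb is the only receptor of the RAR class in the set. It stood highest at E10.5 in NSC and at PN in BP and NBN. RefSeq promoters (GRCm38.p6, 250 bases before to 50 after a start site) were found for 7 of 8 members, 10 windows in all. Both strands were searched for direct repeats of a receptor core motif, AGGTCA or its variants GGGTCA and also AGTTCA and also GGTTCA, spaced by 1, 2 or 5 bases. Of the 10 windows only that of Rarb held such a repeat, with the 5-base spacer. It lay 53 to 37 bases before the start site, at chr14:16575513-16575529. This start site lies inside the annotated gene, which begins at 16819156 on the minus strand. TPM by gene does not tell start sites apart. Repeats with the 5-base spacer were found in 32 of 32851 RefSeq promoters (0.0974%). Those with the 1-base spacer were found in 73 (0.222%) and those with the 2-base spacer in 88 (0.268%). The 250 bases before the start site, chr14:16575477-16575726 on the minus strand, read as follows, with the repeat and its spacer in capitals.
Rarb: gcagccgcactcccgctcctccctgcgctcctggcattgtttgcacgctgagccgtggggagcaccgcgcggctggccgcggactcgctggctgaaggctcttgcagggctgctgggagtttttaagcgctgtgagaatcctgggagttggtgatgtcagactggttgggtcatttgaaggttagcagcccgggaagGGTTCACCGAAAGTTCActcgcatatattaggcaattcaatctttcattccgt

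Crabp2, which carries retinoic acid to its receptors in the nucleus, was the most abundant member at E10.5 in NSC and stood at 2.45 ± 0.271 TPM (SD, n = 4) there at E16.5. In NSC it stood at 1042, 1012 and 905 TPM at E10.5 and at 616, 463 and 548 at E11.5. It stood at 101, 204 and 183 at E12.5, at 94.2, 74.7, 61.2 and 68.0 at E13.5, and at 24.0, 20.0 and 11.97 at E14.5. Every library lay below every library of the stage before at each step from E10.5 to E16.5. From E16.5 to E18.5 the NSC libraries held 0.865 to 2.96 TPM, and the PN libraries 3.21, 4.48 and 4.10. The group mean was 491-fold higher at E10.5 (986 ± 72.3, SD, n = 3) than at E18.5 (2.01 ± 0.83, n = 3).

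BP showed the same course for Crabp2 from their earliest stage. The libraries held 403, 478 and 364 TPM at E12.5, then 150, 76.7 and 89.6 at E13.5, then 19.5, 21.3 and 17.1 at E14.5. At E15.5 they held 5.57, 5.51, 5.85 and 5.54, and from E16.5 on between 1.16 and 4.78. At E12.5 all BP libraries lay above all NSC libraries, with means 2.55-fold apart (415 ± 58.0 against 163 ± 54.2, n = 3 each). At the other 7 shared stages the libraries of the cell types overlapped. The 14 NBN libraries, all from E15.5 or later, ranged from 1.40 to 5.21 TPM and overlapped with NSC at each of 5 stages.

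Crabp1, a binding protein thought to buffer retinoic acid and pass it to breakdown enzymes, peaked in NSC at E10.5 with a wide spread, at 637, 311 and 128 TPM. At E11.5 its libraries held 10.8, 9.19 and 60.9. From E12.5 to E15.5 it lay between 4.85 and 24.99 TPM, so only replicate 3 of E11.5 exceeded the later range. From E16.5 on all NSC libraries lay at or below 5.38, and the step from E15.5 to E16.5 was 7.36-fold (17.6 ± 5.6 to 2.39 ± 2.07, n = 4 each) with no overlap.

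The spread of Crabp1 between early replicates moved with red blood cell transcripts. The summed TPM of 6 erythroid markers (all 6 at or above 1 TPM in both groups) was 8043, 5191 and 3064 at E10.5, in the order of Crabp1, and 1883, 1191 and 6287 at E11.5, again in its order. In later NSC groups this sum had means from 0.766 to 65.4, with Hba-x and Hbb-y listed at 0 in every library at E17.5 and E18.5. The sum of 6 markers of the cortical hem, a signalling centre at the edge of the cortex, came to 103 to 113 TPM at E10.5 and to 86.7 to 115.6 at E11.5, where Crabp1 was 13.3-fold lower. A sum of 11 markers of meninges and choroid plexus was 197 to 272 at E10.5 and 90.7 to 189.8 at E11.5. Their part in the level of Crabp1 was not tested.

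In BP Crabp1 followed a hump. The libraries held 12.2, 18.9 and 12.49 TPM at E12.5, 21.9, 24.7 and 22.9 at E13.5, and 41.7, 40.6 and 35.7 at E14.5. They held 29.9, 29.8, 25.7 and 24.9 at E15.5, 7.74, 21.3 and 15.7 at E16.5, 3.25 and 3.88 at E17.5, 5.06, 3.62 and 4.93 at E18.5, and 12.4 and 6.72 at PN. BP lay wholly above NSC at 7 of 8 shared stages, by 1.38-fold at E17.5 to 6.24-fold at E16.5, and the exception was E12.5. NBN libraries held 1.47 to 6.74 TPM and lay wholly below BP at 4 of 5 stages, by 5.21-fold at E15.5 (5.30 ± 1.32 against 27.6 ± 2.6, n = 4 each), overlapping at E18.5.

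**Figure D1:**
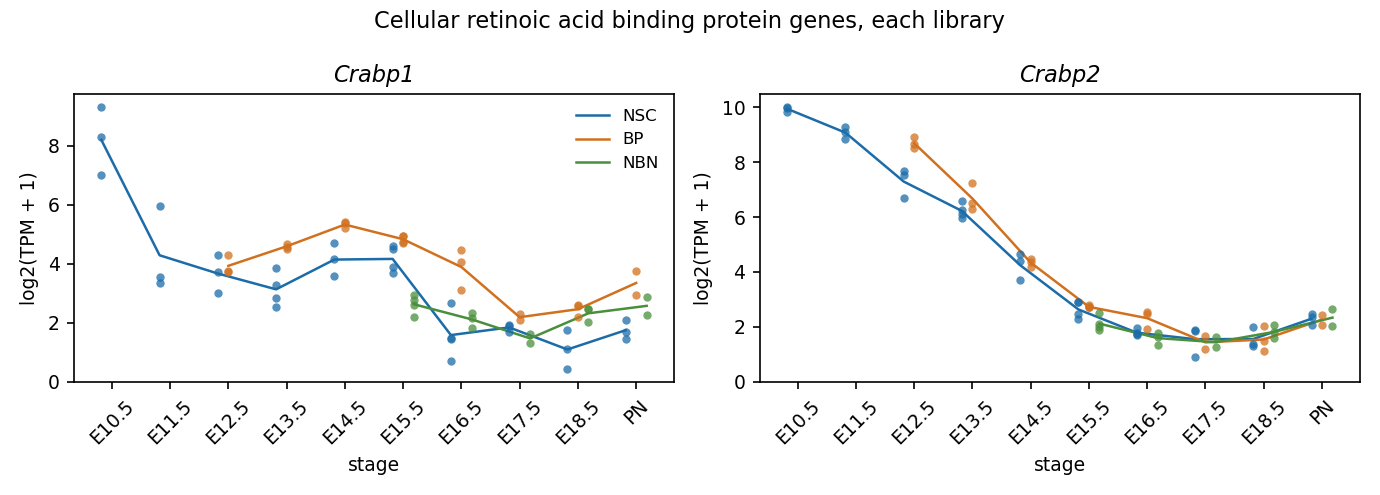
Levels of Crabp1 and Crabp2 in each library on a log2(TPM + 1) axis, by stage, for NSC, BP and NBN; points are libraries and lines join the means of the plotted values. Crabp2 is lower at each stage than at the one before up to E16.5 in NSC and up to E17.5 in BP, while Crabp1 is higher in BP than in NSC from E13.5 on.

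Rlbp1, which binds retinaldehyde and retinol and is best known from retinal glia, ran the other way. Its NSC libraries held 1.54, 1.32 and 1.23 TPM at E10.5 and 2.08, 2.76 and 3.62 at E11.5. They held 39.6, 25.4 and 35.3 at E12.5, an 11.9-fold higher mean in 1 day. Later NSC group means were 53.8 at E13.5, 99.7 at E14.5, 118 at E15.5, 180.1 at E16.5, 238 at E17.5 and 300.1 at E18.5. The PN libraries held 325, 340 and 318 TPM, 240.3-fold above E10.5. Each step of NSC was free of overlap except those from E14.5 to E15.5, from E16.5 to E17.5 and from E18.5 to PN.

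BP lagged NSC in Rlbp1 and then levelled off. At E12.5 BP libraries held 0.816, 1.22 and 1.29 TPM, 30.2-fold below NSC, and at E13.5 10.4, 22.0 and 19.1, 3.13-fold below. The groups overlapped at E15.5, at 113, 107, 109 and 104 TPM in BP against 97.8 to 139.7 in NSC. From E16.5 to PN the BP libraries stayed between 109.7 and 147.7 TPM, so the gap reopened to 2.85-fold at PN (115.1 ± 1.98, n = 2, against 328 ± 10.9, n = 3). NSC libraries lay wholly above BP at the 7 other shared stages. The 14 NBN libraries held 60.7 to 99.0 TPM, below every BP and NSC library of the same stage at each of 5 stages, by 1.30-fold to 1.65-fold against BP.

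Astroglial transcripts moved with Rlbp1 in late NSC. The summed TPM of 8 astroglia markers had NSC group means of 182 at E15.5, 1045 at E17.5 and 3581 at PN, against 62.4, 144 and 243 in BP. Radial glia markers summed to a mean of 689.8 in BP at PN and to 10282 to 11511 over the NSC libraries of PN. Their part in the level of Rlbp1 was not tested.

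Dhrs3 reduces retinaldehyde back to retinol and so limits retinoic acid formation; it is also known as a gene that retinoic acid induces. It was near 1 TPM in NSC until E13.5 (0.212 to 2.70 over 13 libraries). NSC libraries then held 2.46, 4.32 and 2.15 TPM at E14.5, 5.12, 6.20, 11.2 and 7.54 at E15.5, and 19.2, 25.2, 23.9 and 43.2 at E16.5. From E17.5 to PN they stayed between 14.3 and 34.5. The groups did not overlap at the 3 steps from E13.5 to E16.5, and thereafter each step overlapped.

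BP started lower in Dhrs3 and ended higher. Their libraries held at most 0.662 TPM at E12.5 and E13.5, with 1 of them listed at 0, and 1.45, 0.534 and 1.94 at E14.5, wholly below NSC. At E15.5 they held 14.3, 12.6, 16.4 and 13.8, a 10.9-fold higher mean than the day before and wholly above NSC. They lay wholly above NSC also at E18.5 (33.9, 43.6 and 31.4 against 18.6, 22.1 and 14.3) and at PN (44.6 and 44.7 against 21.6, 27.0 and 30.4). At E16.5 BP replicate 1 stood apart, at 62.3 TPM against 23.4 and 26.4.

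NBN held less Dhrs3 than both progenitor types at each of their 5 stages, without overlap. Their libraries held 1.74, 1.45, 0.541 and 1.77 TPM at E15.5, 3.60, 3.73 and 2.72 at E16.5, and 11.7 and 7.78 at E17.5. They held 8.52, 9.88 and 11.3 at E18.5, and 18.9 and 16.3 at PN. The gap to BP was 10.4-fold at E15.5, 11.2-fold at E16.5 and 2.54-fold at PN. Dhrs3 was thus the member that most separated NBN from BP, and the gap was smaller at the later stages in these libraries.

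**Figure D2:**
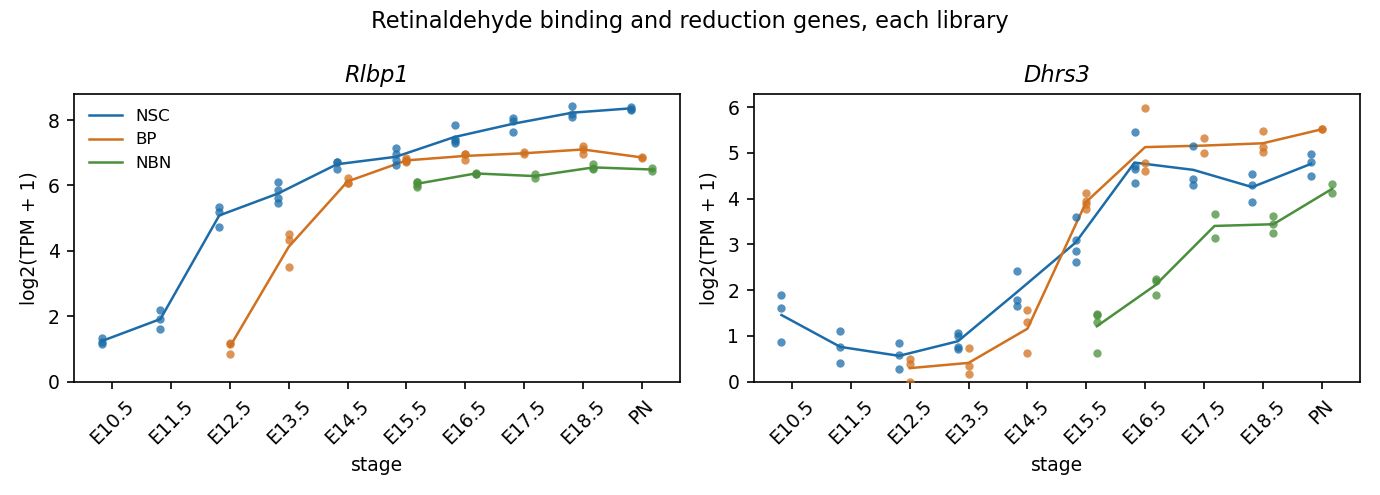
Levels of Rlbp1 and Dhrs3 in each library on a log2(TPM + 1) axis, by stage, for NSC, BP and NBN; points are libraries and lines join the means of the plotted values. Rlbp1 is lowest in NSC at E10.5 and in BP at E12.5, and Dhrs3 climbs between E14.5 and E16.5 in NSC and BP and stays lower in NBN.

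Aldh1a2 makes retinoic acid from retinaldehyde and in the forebrain is best known from the meninges. It was below 1 TPM in 54 of 70 libraries and listed at 0 in 14, among them all of NSC E16.5 and BP E12.5. Its group mean was highest at PN within each cell type. NSC held 1.32, 1.35 and 1.05 TPM at PN, BP held 1.61 and 2.84, and NBN held 2.20 and 2.02. Before birth single libraries stood out from their group, NSC E11.5 replicate 3 at 1.35 TPM against 0.0537 and 0.0911, NSC E13.5 replicate 3 at 1.07 against 0.165 to 0.209, and BP E15.5 replicate 1 at 2.10 against 0.427 to 0.702.

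Markers of meninges and choroid plexus moved with Aldh1a2 in some of these groups. Their sum over 11 genes was 39.0 TPM in BP E15.5 replicate 1 and 11.0 to 16.4 in the other replicates. It was 190 TPM in NSC E11.5 replicate 3 against 90.7 and 111, and in NBN E18.5 it was 44.2, 32.3 and 11.2 where Aldh1a2 was 3.16, 1.28 and 0.637. In NSC E13.5 the sum did not single out replicate 3 (24.4, 22.4, 17.7 and 13.9 in replicate order). At PN the group means of the sum were 50.1, 42.1 and 29.5 TPM in NSC, BP and NBN, with 7, 9 and 8 of 11 markers at or above 1 TPM, and at NSC E16.5 it was 3.64 with none of 11 at that level. The part of these markers in the level of Aldh1a2 was not tested.

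Cyp26b1, which inactivates retinoic acid by oxidation, never exceeded 5.76 TPM. In NSC it peaked at E15.5 (5.63, 5.36, 3.29 and 4.63 TPM), above every NSC library of other stages, and was lowest at E18.5 (0.115, 0.217 and 0.239). In BP it was highest at E14.5 (5.07, 2.86 and 5.75) and lowest at PN (0.436 and 0.516). NBN held 2.70 to 5.76 TPM from E15.5 to E18.5 and 2.05 and 1.43 at PN. NBN lay wholly above BP at 4 of 5 stages, with means of 4.94 ± 1.14 against 1.35 ± 0.67 at E16.5 (n = 3 each), and wholly above NSC at 4 of 5 stages.

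Rarb, a retinoic acid receptor, had an early high point in NSC and a late high point in BP and NBN. NSC libraries held 7.90, 7.74 and 6.47 TPM at E10.5, more than any other library of the series, and 1.66, 2.00 and 3.57 at E11.5. From E12.5 to E14.5 they held 0.751 to 1.95, at E15.5 0.985 to 4.38 and at E16.5 1.74 to 2.52. At E17.5 they held 1.24 to 1.49, at E18.5 1.53 to 2.15, and at PN 2.91, 2.48 and 2.83. BP held 3.16, 2.52 and 2.53 TPM at E12.5 and 0.608 to 1.65 from E13.5 to E16.5. They then held 4.24 and 2.05 at E17.5, 3.35, 4.37 and 4.12 at E18.5, and 5.90 and 4.65 at PN, wholly above NSC and NBN at each of these 3 stages. NBN held 0.359 to 1.36 TPM to E17.5, 1.59, 1.24 and 1.99 at E18.5, and 3.57 and 2.74 at PN.

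Rxrg, an RXR, was highest in NSC at PN, at 11.1, 9.31 and 9.27 TPM, 2.30-fold above E18.5 (5.33, 4.15 and 3.47). In BP it lay at or below 1.72 TPM to E16.5, then at 0.987 and 1.205, at 2.26, 1.58 and 2.70, and at 4.07 and 2.69 at E17.5, E18.5 and PN. NBN reached 1.83, 2.20 and 2.19 TPM at E18.5 and 3.00 and 2.74 at PN. NSC lay wholly above BP at 5 of 8 shared stages and wholly above NBN at 4 of 5. All 3 cell types thus held their highest Rxrg at PN.

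In NSC at E15.5 both receptors varied together between replicates. Rxrg stood at 5.17, 0.962, 1.82 and 4.41 TPM and Rarb at 4.38, 0.985, 2.08 and 3.03, in replicate order. The summed TPM of 12 ventral forebrain and interneuron markers was 829, 233, 494 and 542 in these libraries. At E16.5 Rxrg stood at 3.53, 1.18, 0.943 and 0.771, and the ventral sum at 893, 531, 509 and 375. This sum had group means of 176 to 1440.5 TPM in NSC against 26.2 to 95.3 in BP and 26.0 to 103 in NBN. Oligodendrocyte precursor markers (6 genes) summed to 1526 to 1730 TPM in NSC at PN, with all 6 at or above 1 TPM, and to a mean of 18.2 in BP at PN. The part of either list in Rarb or Rxrg was not tested.

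**Figure D3:**
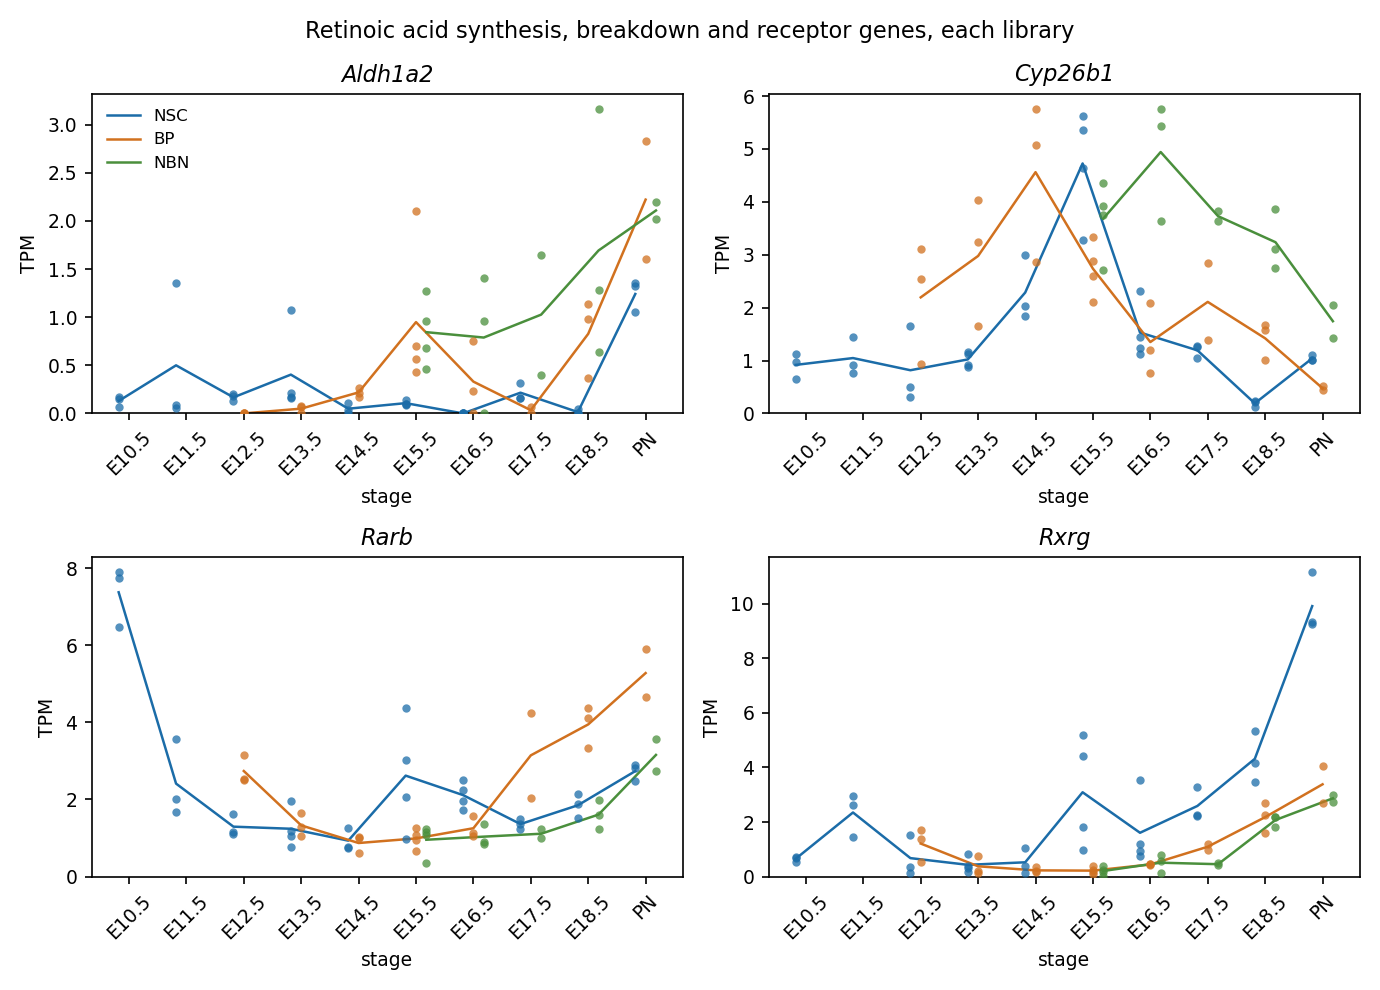
Levels of Aldh1a2, Cyp26b1, Rarb and Rxrg in each library in TPM, by stage, for NSC, BP and NBN; points are libraries and lines join group means. Cyp26b1 is highest in mid stages, whereas Rxrg and Aldh1a2 are highest at PN and Rarb at E10.5 in NSC and at PN in BP and NBN.

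**Figure D4:**
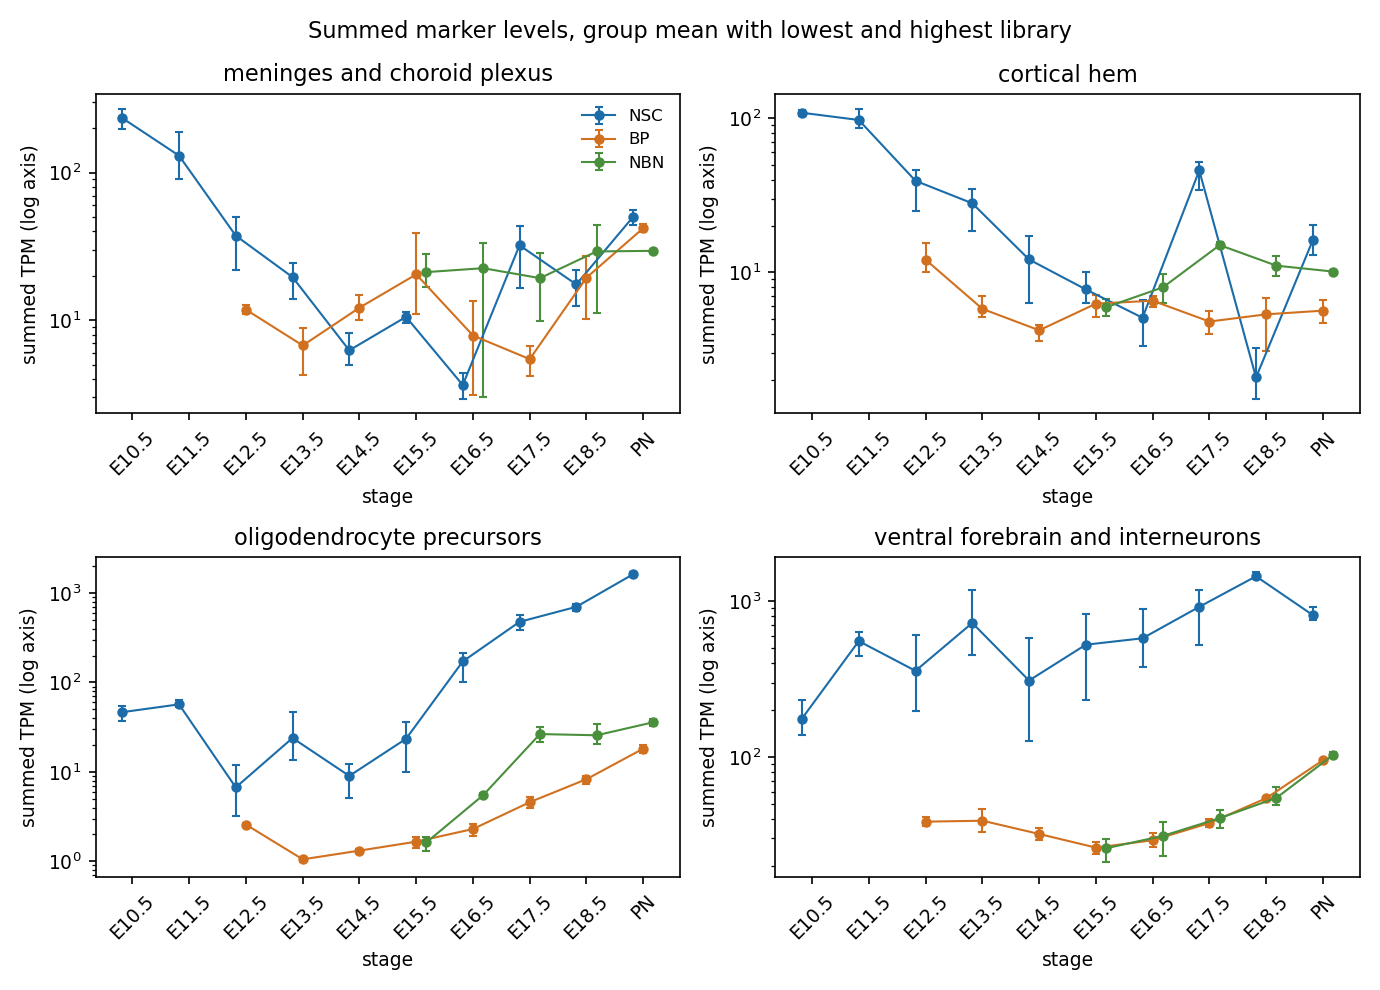
Summed TPM, on a log axis, of markers of other cell types by stage for NSC, BP and NBN; points are group means and bars run from the lowest to the highest library. The meninges and hem sums start high in NSC at E10.5, and the ventral and oligodendrocyte precursor sums are higher in NSC than in BP and NBN at each shared stage.

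The order of the 23 group means was resolved to different degrees. Of 22 neighbouring pairs in that order, the libraries did not overlap in 9 for Rlbp1, 4 for Crabp2, 2 each for Crabp1, Dhrs3 and Rarb, and 1 each for Cyp26b1, Aldh1a2 and Rxrg. For Crabp1 the separated pairs were NSC E10.5 over BP E14.5 (359 and 39.3 TPM) and BP E14.5 over BP E15.5 (27.6). Most neighbouring groups of the low members thus did not differ beyond their spread. Across the 23 group means on log2(TPM + 1), which share libraries, Crabp2 and Rlbp1 had a Pearson correlation of -0.91, Crabp2 and Dhrs3 -0.77, and Crabp1 and Crabp2 0.72. Rlbp1 and Dhrs3 had 0.72 and Rarb and Rxrg 0.50.

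The genes with the pattern most like each member were read off in the same way, from the 3 highest Pearson correlations over the 23 group means among 11630 genes. For Crabp2 these included Eya2 (0.95) and the embryonic globin Hbb-y (0.95). For Crabp1 they were Esd (0.84), Eif3m (0.82) and Smim1 (0.81), for Rlbp1 the activin subunit Inhbb (0.97), Fam210b (0.94) and Pmepa1 (0.93), and for Dhrs3 the laminin Lama2 (0.97), Ptplad2 (0.95) and Crtc3 (0.94). For Aldh1a2 they were Apod (0.92), the iron exporter Slc40a1 (0.89) and the tight junction gene Cldn11 (0.88), and for Cyp26b1 Lnx2 (0.90), Stk32b (0.89) and Gpr176 (0.89). Rxrg was most like Tmco4 (0.87), Gpr146 (0.86) and Art3 (0.86), and Rarb, with the loosest match, most like Parm1 (0.82), Galt (0.78) and H2-Q6 (0.77).

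Differences between cell types and between periods were estimated for all 15508 genes that passed the filter, with limma on log2(TPM + 1), which understates the change of low genes. A non-member gene counted as called where limma's p, adjusted by Benjamini and Hochberg's method, lay under 0.05 and the difference was 1 or more. Such p-values reflect only how far these libraries spread, and that spread may be technical. The comparisons share libraries, so they are not independent. For the members the differences are given with their standard error and no test, and the share of all genes called stands beside each count only as a scale. Beside the members, 48 other genes of the pathway in 7 lists were tested, of 69 listed and 67 found in the table, and the other 19 had means below 1 TPM in every group.

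Between BP and NSC over the 8 shared stages, 1 of 8 members was higher by at least 1, Crabp1 (1.15 ± 0.16 SE), and 1 was lower, Rlbp1 (-1.30 ± 0.06). Among all genes 1.87% were called higher and 6.22% lower. Rxrg differed by -0.63 ± 0.10 and the other 5 by at most 0.35 either way. Among the 48 other pathway genes 1 was higher and 2 were lower, with a median difference of -0.07 against -0.02 over all genes. The orphan receptor gene Nr4a3 was higher (1.15 ± 0.10, limma adjusted p = 1.32e-14), as 28.0 ± 21.4 against 14.7 ± 15.2 TPM. Lower in BP was Aldh1a3, another retinoic acid synthesis enzyme, at 0.0843 ± 0.111 TPM in BP and 2.04 ± 1.85 in NSC, named here after its values were seen.

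Between NBN and BP over 5 stages, none of the members was higher by at least 1 and 2 were lower, Crabp1 (-1.12 ± 0.22) and Dhrs3 (-2.11 ± 0.14), where 4.36% of all genes were called higher and 5.06% lower. Cyp26b1 differed by 0.80 ± 0.11 and Rlbp1 by -0.57 ± 0.08. The other pathway genes gave 3 calls higher and 4 lower of 48. The dehydrogenase gene Dhrs4 was lower in NBN, at 13.1 ± 3.2 TPM against 60.4 ± 13.8 (n = 14 each), by -2.12 ± 0.07 (limma adjusted p = 3.02e-31), and so was Stra6, the receptor for retinol uptake, at 1.96 ± 1.18 against 7.26 ± 2.27 TPM. Higher in NBN were the thyroid hormone receptor gene Thra (1219 ± 112 against 547 ± 96 TPM), the corepressor gene Nrip1 (1.81 ± 0.11) and Nr4a2 (1.15 ± 0.10). Meis1, a homeobox gene known to respond to retinoic acid, was lower (-1.17 ± 0.13), and the fourth gene lower was the thyroid hormone receptor Thrb (-1.41 ± 0.08), which the naming rule leaves out for its low level.

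Between NBN and NSC, 3 members were lower by at least 1, Rlbp1 (-1.42 ± 0.07), Dhrs3 (-1.42 ± 0.13) and Rxrg (-1.18 ± 0.13), and none was higher. Of all genes 6.51% were called higher and 12.6% lower. Cyp26b1 (0.86 ± 0.11) and Aldh1a2 (0.78 ± 0.12) differed the other way. Outside the members 4 of the 48 were higher and 6 lower, with a median of -0.24 against -0.12 over all genes. The lower ones included Meis1 (-2.71 ± 0.13), Dhrs4 (-2.01 ± 0.07), Ppard (-1.26 ± 0.07), the receptor gene Rxra at 8.91 ± 1.00 TPM against 21.2 ± 5.3 (-1.17 ± 0.07, limma adjusted p = 4.02e-23), and the carotenoid cleavage gene Bco2, which the naming rule leaves out. Thra, Nr4a3 and Nrip1 were higher. The fourth gene higher was Ttr, a retinol carrier abundant in choroid plexus, at 0 to 382 TPM in NBN and 0 to 230 in NSC.

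In NSC, mid stages (E13.5 to E15.5) were set against early stages (E10.5 and E11.5). Of the members Rlbp1 was higher (4.85 ± 0.10) and 3 were lower by at least 1, Crabp2 (-5.14 ± 0.16), Crabp1 (-2.43 ± 0.28) and Rarb (-1.12 ± 0.13), where 13.7% of all genes were called higher and 5.26% lower. Without the E10.5 libraries Crabp1 differed by -0.48 and Rarb by -0.45, so these 2 values rested on E10.5, whereas Crabp2 differed by -4.71 and Rlbp1 by 4.51. In the lists 8 of 48 genes were higher and 4 lower. Stra6 was lower, at 3.90 ± 1.39 TPM (n = 11) against 19.8 ± 10.7 (n = 6; -2.00 ± 0.14, limma adjusted p = 3.10e-19), with Rxra (21.6 ± 7.3 against 54.8 ± 8.5 TPM) and, at low levels and outside the naming rule, the synthesis enzyme Aldh1a1 and the transglutaminase gene Tgm2. Higher were, among others, Thra (2.63 ± 0.11), Nr4a3 (2.74 ± 0.18), Meis2 (306 ± 26 against 76.3 ± 31.5 TPM), the coactivator gene Ncoa1 (2.30 ± 0.09), Nr4a2 (1.05 ± 0.13), Thrb and Ttr. Without E10.5, Nr4a2 (0.93) and Ttr (limma adjusted p = 0.0997) were no longer called, and without NSC E10.5 replicate 1 or NSC E15.5 replicate 1 Nr4a2 was just under a difference of 1 (0.98 and 1.00).

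From mid to late stages (E17.5, E18.5 and PN) NSC held more Dhrs3 (2.59 ± 0.16), Rlbp1 (1.73 ± 0.09) and Rxrg (1.57 ± 0.16) and less Crabp2 (-2.57 ± 0.14) and Crabp1 (-2.25 ± 0.25). Of all genes 9.31% were called higher and 2.45% lower. Cyp26b1 differed by -0.93 ± 0.13 and Rarb by 0.27 ± 0.12, the latter turning to -0.12 under quantile normalization. Of the 48 other genes 6 were higher and 1, Nr4a2, was lower (-1.25 ± 0.12). The dehydrogenase gene Dhrs7 was higher, at 14.6 ± 8.5 TPM (n = 9) against 1.99 ± 0.30 (n = 11; 2.19 ± 0.10, limma adjusted p = 8.70e-26), as were Meis1 (24.6 ± 5.8 against 11.6 ± 4.4 TPM) and the orphan receptor gene Nr4a1 (1.502 ± 0.10). Nr4a1 is also an immediate early gene, and a sum of 8 markers of dissociation stress had an NSC mean of 965 TPM at PN against 208 at E15.5. Its part was not tested, and without the postnatal libraries Nr4a1 differed by 0.78 and was not called. The other 3 calls, at low levels and outside the naming rule, were Bco2, Ppara and Rarres1.

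From mid to late stages BP held more Dhrs3 (3.46 ± 0.18), Rlbp1 (1.31 ± 0.10), Rarb (1.28 ± 0.13) and Rxrg (1.27 ± 0.17) and less Crabp2 (-2.84 ± 0.15) and Crabp1 (-2.25 ± 0.27). Among all genes 3.29% were called higher and 1.42% lower. These 6 members were also free of overlap between the periods. The share of all genes free of overlap is not given here, so this count has no scale beside it. Of the 48 other genes 2 were higher and 1 lower. The receptor gene Rara was lower, at 2.12 ± 0.62 TPM (n = 7) against 5.93 ± 2.02 (n = 10; -1.21 ± 0.13, limma adjusted p = 1.13e-11), and Meis2 was higher, at 581 ± 74 against 270.4 ± 99.9 TPM (1.26 ± 0.09). Ttr was called higher (1.48 ± 0.64, limma adjusted p = 0.0427) with libraries from 0 to 784 TPM, but without the postnatal libraries it differed by -0.34 (adjusted p = 0.716), and the call ended on leaving out any of 11 single libraries (adjusted p from 0.0511 to 0.113).

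In NBN, late stages (E17.5 to PN) against E15.5 and E16.5 showed 1 member higher by at least 1, Dhrs3 (2.02 ± 0.19), and none lower, where 1.27% of all genes were called higher and 1.06% lower. Rxrg differed by 0.95 ± 0.19 and Rarb by 0.52 ± 0.14, and without the postnatal libraries Rarb differed by 0.25. Crabp1 differed by -0.25, Crabp2 by 0.01 and Rlbp1 by 0.23, and Crabp2 turned to -0.12 under quantile normalization. Elsewhere in the lists only Nr4a2, 1 of 48, was called, lower at 8.66 ± 6.84 TPM against 32.0 ± 8.4 (n = 7 each; -1.91 ± 0.14, limma adjusted p = 2.81e-16).

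The late difference in BP was then compared with that in NSC, as the difference of the differences. Of the members Rarb differed by at least 1 (1.02 ± 0.18), with a late difference of 1.28 in BP and 0.27 in NSC. The value was under 1 on leaving out any of 12 single libraries, lowest at 0.89 without BP E17.5 replicate 1. Among all genes 2.86% were called higher and 6.85% lower. Dhrs3 followed at 0.87 ± 0.24 and Rlbp1 at -0.42 ± 0.13, and for Crabp1 the value was 0.00 ± 0.37. Of the 48 other genes 2 were higher and 6 lower. The late difference of Meis2 was 1.26 in BP and -0.12 in NSC (1.38 ± 0.12, limma adjusted p = 8.18e-14), and that of Dhrs7 0.24 in BP and 2.19 in NSC (-1.95 ± 0.15).

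Read by list over the 8 comparisons, the 4 other retinoid receptor genes gave no call higher. Of all genes 1.27% to 13.7% were called higher and 1.06% to 12.6% lower, depending on the comparison. Counts among 4 genes are too small to set apart from these shares. In each of 3 comparisons 1 of them was called lower, Rxra in NBN against NSC and in NSC mid against early, and Rara in BP late against mid. The member receptors Rarb and Rxrg were both higher in that last comparison, by 1.28 and 1.27, as sizes without a test.

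**Figure D5:**
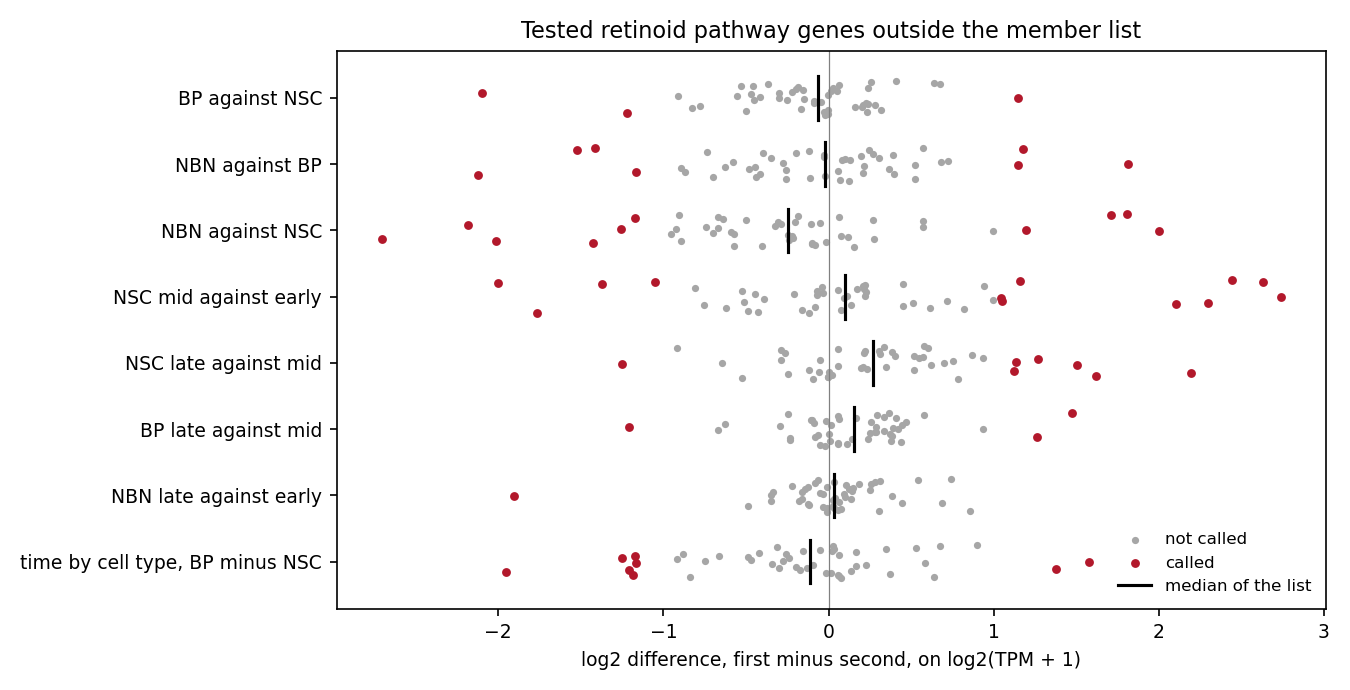
Log2 differences, on log2(TPM + 1), of the 48 tested pathway genes outside the member list in each of 8 comparisons; points are genes, red where called, and bars are medians. The largest count of calls is 12, in NSC mid against early stages, and the smallest is 1, in NBN late against early stages.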

How the data were processed

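Gene abundances came as a deposited table of TPM that the authors had estimated with kallisto 0.43.0, the submitters' processing notes naming GRCm38.p2 and mm10. Per the labels' protocols, cells were dissociated with papain, sorted by GFP and sequenced as single-end 50-base reads from a library kit that does not mark strand. Which step used which build is not given. Depth cannot be recovered from TPM, so precision rests on the spread between libraries.

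Libraries were grouped by title. Of 23078 rows, 22361 identifiers matched the GRCm38 annotation. Values were taken as log2(TPM + 1), the 15508 genes whose mean reached 1 TPM in any group were kept, and limma 3.58.1 in R 4.3.3 fitted 1 mean for each cell type and stage over all 70 libraries, with trended moderated variances and 47 residual degrees of freedom. Contrasts averaged stages equally, and p-values were adjusted over all genes tested. The fit was tested on simulated data made from these libraries. Before the shift each simulated gene had the same mean in every group, with independent noise. Shifted genes were drawn only from genes above a set mean level, so recovery of low genes was not tested. For NSC mid against early stages, run on 15508 genes, 99% of 100 genes shifted by 1.5 were recovered.

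The members and lists were chosen with earlier results of these data known. Named pathway genes were, for each list and comparison, at most the 4 called genes with the largest difference and at least 5 TPM on the higher side. Genes named for likeness had a group mean of at least 5 TPM and were the 3 with the highest correlation. Alternatives varied the pseudocount, filter, scaling, variance trend, libraries fitted, replicate block and a Y-linked covariate, and left out each library in turn. Leaving out all postnatal or all E10.5 libraries was chosen after seeing the data. The antisense gene Gm48162 at Rarb was not analysed here. Some genes that these rules would name are not reported here.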

Additional observations from a re-analysis of the deposited data

Results flagged for a closer look

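Among 40 sets of 1 member in a group of 4 libraries, 4 held a library far from the others. About 1 in 20 such sets would be flagged by chance, so the flags describe libraries and are no test of the members. For Aldh1a2, NSC E13.5 replicate 3 stood at 1.07 TPM and BP E15.5 replicate 1 at 2.10 TPM. NSC E15.5 replicate 2 stood at 0.139 TPM (the others from 0.0919 to 0.0995), all far below 1 TPM. For Rxrg, NSC E16.5 replicate 1 stood at 3.53 TPM.

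For 6 pathway genes the difference of late from mid stages was not the same in BP and NSC, by limma's test of the interaction. The values, BP minus NSC on log2(TPM + 1) with limma adjusted p, were -1.95 for Dhrs7 (6.55e-16), -1.18 for Bco2 (3.04e-10), -1.21 for Meis1 (1.51e-05) and -1.17 for Nr4a1 (4.50e-09). They were 1.58 for Nr4a3 (1.99e-07) and 1.38 for Meis2 (8.18e-14). Without the postnatal libraries Nr4a1 differed by -0.47 and was not called. No member had all libraries moving in opposite directions in the 2 cell types.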

How the results depend on the processing

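Counts of called genes depended most on the pseudocount, since limma was run on log values of low genes. With a pseudocount of 0.1 the calls over all genes were 2031 for BP against NSC (1255 as reported), 2256 for NBN against BP (1461), 2788 for NSC late against mid (1824), 1534 for BP late against mid (730) and 893 for NBN late against early (361). Pathway calls became 5, 18, 12, 4 and 13 for BP against NSC, NBN against NSC, NSC late against mid, NBN late against early and the interaction. With a pseudocount of 5 the calls over all genes were 634, 729, 1791, 1625, 918, 285, 132 and 780, in the order of the report, and the pathway calls that moved were 1 for BP against NSC, 3 for NBN against BP, 7 for NSC mid against early, 2 for NSC late against mid and 3 for the interaction. At this pseudocount some members fell under a difference of 1. Crabp1 was 0.75 in BP against NSC and -0.76 in NBN against BP. In NBN against NSC Dhrs3 was -0.99 and Rxrg -0.53. Rarb was -0.55 in NSC mid against early and 0.49 in the interaction. Rxrg was 0.72 in NSC late against mid, and in BP late against mid Rarb was 0.58 and Rxrg 0.44. A pseudocount of 0.1 instead took others past 1, among them Aldh1a2 in NBN against NSC (2.13). Without E10.5 libraries 1850 genes were called for NSC mid against early (2944 as reported). Ttr in BP late against mid turned to -0.34 without postnatal libraries. Scaling moved the split of calls. Under quantile normalization the share of calls that were higher went from 23.1% to 33.3% for BP against NSC, from 34.1% to 49.4% for NBN against NSC, from 72.3% to 52.1% for NSC mid against early, from 79.2% to 57.8% for NSC late against mid and from 69.9% to 49.9% for BP late against mid. It also moved the median of all genes in NSC mid against early from 0.14 to -0.04. Of the members, quantile normalization turned Crabp2 in NBN against NSC to 0.28. It turned Crabp2 in NBN late against early and Rarb in NSC late against mid to -0.12 each. It also took Crabp1 in NBN against BP to -0.98 and Rxrg in NBN against NSC to -0.86, under a difference of 1. Cyp26b1 passed 1 under it, at 1.14 in NBN against NSC, -1.18 in NSC late against mid and -1.19 in BP late against mid. Leaving out single libraries moved none of 428 counts by over 1.5 times and none of 1712 member differences beyond the spread between replicates. It ended 13 pathway calls, for Ttr in BP late against mid and Nr4a2 in NSC mid against early, and kept 1091. Leaving out NSC E11.5 replicate 3 turned Aldh1a2 in NSC mid against early to 0.08. Single libraries also took Cyp26b1 in BP late against mid to as far as -1.06 (3 libraries) and Rxrg in NBN late against early to 1.02 (NBN E16.5 replicate 1), past a difference of 1. With the replicate number as a block 1259 genes were called for BP against NSC and 1461 for NBN against BP. No pathway call changed, and Rarb in the interaction was 0.997. This block gave each number a shift shared by all stages and cell types, so it could not model pairs within a stage. BP and NBN held the same numbers at each shared stage, so the block could not move the difference between them. Same-numbered libraries of NSC and BP had deviations correlated above 0.1 in 9 of 23 pairs (15 of 56 pairs with different numbers), of BP and NBN in 8 of 14 (6 of 28) and of NSC and NBN in 1 of 14 (10 of 35). Since not every same-numbered pair was above 0.1 and the labels name no shared source, the numbers were not used as pairs, although those of BP and NBN leaned that way.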
